A study of Mus musculus with 6 samples.

Results

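The 10 genes described here encode transcription factors that shape the heart valves: Nfatc1, Gata4, Gata5, Gata6, Tbx20, Twist1, Twist2, Snai1, Snai2 and Scx. They were taken as a list of gene symbols, which was drawn up with earlier results of these data known. All 10 are among the 23107 genes of the deposited count table. All 10 also passed the minimum of 10 counts in at least 3 of the 6 libraries, which left 15354 genes to test. The study collected aortic valve tissue of outbred mice aged 4 months and sequenced 3 control and 3 mutant libraries. The mutants carried both a Cre-activatable transgene for constitutively active Acvr1, a type I receptor for bone morphogenetic proteins (BMPs), and a Cre cassette knocked into the Nfatc1 locus. In the deposited labels the controls are wild type, whereas the study's methods allow controls with either allele alone or with neither, and which of these were sequenced is not given. The recombination domain of this Cre, as described in the study, covers the endocardium, its mesenchymal derivatives in the cushions, valve interstitial cells and cells at the junction of leaflet and wall, so only a part of the cells in each sample could express the active receptor. The study's methods call the samples of its assays independent, and the labels do not say whether a library came from a single animal or a pool, so p-values measure the spread between these samples.

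Heart valves begin as endocardial cushions. Endocardial cells loosen their junctions, enter the cushion matrix as mesenchyme and later become the interstitial cells of the leaflets, in a process driven in part by BMP and TGF-beta signals. Snai1 and Snai2 are zinc finger repressors that act in this transition, Twist1 and Twist2 are basic helix-loop-helix (bHLH) factors of the cushion mesenchyme, and Scx is a bHLH factor of tendons that is also known from valve interstitial cells. Nfatc1 is a calcineurin-dependent factor of the endocardium that the growth of valve leaflets requires, and the zinc finger factors Gata4, Gata5 and Gata6 and the T-box factor Tbx20 act in both endocardium and cardiac muscle.

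Library totals ran from 32218343 to 55728854 estimated fragments. Levels are given as CPM, counts scaled to a common library total after TMM normalization for composition, and a value after ± is the SD of a group (n = 3). The log2 fold change of mutants over controls is written log2FC and its standard error SE. The lowest count of any of the 10 genes was 152, for Twist2 in mutant replicate 2, so counting error was small for all of them. The markers of fibroblasts and valve interstitial cells summed to between 13927 and 17898 CPM per library and those of endothelial cells to between 2713 and 3864 CPM, with every marker of both lists detected in each library. Markers of cardiac muscle were also abundant, at 14513 to 45535 CPM in the controls and 23186 to 48873 CPM in the mutants, and they were lowest in control replicate 2. In bulk tissue, fewer cells of a type and less RNA per cell cannot be told apart.

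Of the 10 genes, 0 had an adjusted p under 0.05 between mutants and controls in the quasi-likelihood test of edgeR, which called 0 of all 15354 genes (0%). DESeq2, which called 21 genes higher and 5 lower over all, and limma-voom with sample quality weights also called 0 of the 10. At an unadjusted p under 0.05 there were 2 of the 10, Tbx20 and Gata5, against 3.45% of all genes tested. The count was 1, Tbx20 alone, without control replicate 1 or 3 or without mutant replicate 1 or 2, and 3 with Gata4 without mutant replicate 3. In Tbx20 and Snai1 every mutant lay above every control, as in 4.04% of all genes tested, and in 0 of the 10 did every mutant lie below, against 4.83%. Without mutant replicate 3, every mutant lay above every control in Nfatc1, Gata4 and Gata5 as well, which makes 5 of the 10 against 8.11% of all genes, and without mutant replicate 1 also in Twist1, which makes 3 against 9.83%. The fitted log2FC was positive for 5 of the 10 (Tbx20, Gata5, Gata4, Snai1 and Nfatc1) and negative for the other 5, and without mutant replicate 1 it was positive for 9. Its median over the 10 genes was 0.11, beside 0.01 over all genes tested. The median of the 10 dropped to 0.039 without control replicate 3 and was 0.22 without control replicate 1 or without mutant replicate 3. Because the 10 genes were listed with earlier results of these data known, these counts are given as a description.

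**Figure D1:**
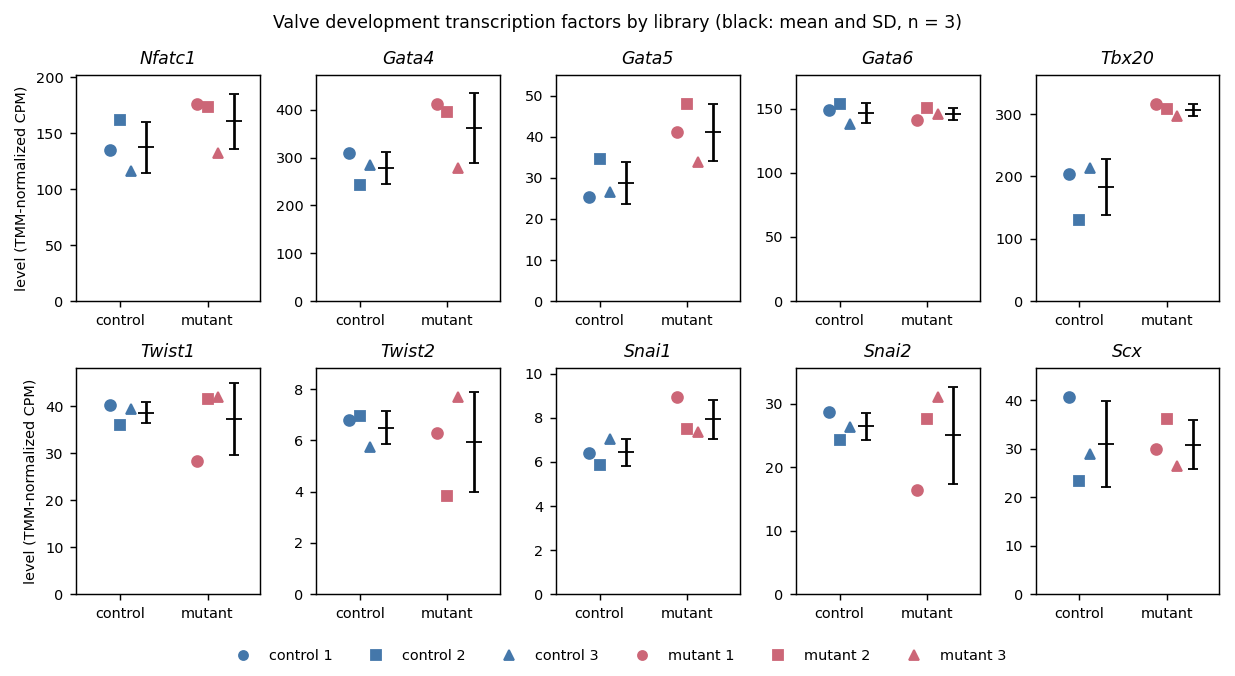
Level of each of the 10 transcription factors in TMM-normalized CPM (vertical axes from 0, a separate scale for each gene) in the 3 control (blue) and 3 mutant (red) libraries, with marker shape for the replicate number and black bars for the mean and SD of each group. Tbx20 and Snai1 are the genes whose 3 mutants all lie above the 3 controls, whereas Gata6 stays between 138 and 153 CPM in all 6 libraries.

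The bases upstream of the start sites of Tbx20, Snai1 and Gata5 are shown because these genes had the groups without overlap or an unadjusted p under 0.05. RefSeq promoter sequences on GRCm38.p6 were found for 5 of the 10 genes (Tbx20, Snai1, Gata5, Twist1 and Twist2), and the 250 bases before the start are printed, 5′ to 3′ on the gene's strand. The Tbx20 window is chr9:24774304-24774553 on the minus strand, the Snai1 window is chr2:167537945-167538194 on the plus strand and the Gata5 window is chr2:180334680-180334929 on the minus strand. Capitals mark matches, on either strand, to the E-box CANNTG (the letters bound by bHLH and Snail factors), to a GATA site (AGATAA or AGATAG or TGATAA or TGATAG), to the NFAT core GGAAA or to the GC-rich Smad site GGCGCC.
Tbx20: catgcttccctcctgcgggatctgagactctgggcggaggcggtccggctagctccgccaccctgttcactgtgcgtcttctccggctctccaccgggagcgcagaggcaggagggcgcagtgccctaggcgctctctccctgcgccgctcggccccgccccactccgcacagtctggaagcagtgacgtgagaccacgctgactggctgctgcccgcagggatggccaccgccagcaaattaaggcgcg
Snai1: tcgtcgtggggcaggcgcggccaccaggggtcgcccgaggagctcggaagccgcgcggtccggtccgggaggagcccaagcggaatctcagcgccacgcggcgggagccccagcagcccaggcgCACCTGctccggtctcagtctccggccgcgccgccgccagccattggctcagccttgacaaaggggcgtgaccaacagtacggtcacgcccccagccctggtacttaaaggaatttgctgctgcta
Gata5: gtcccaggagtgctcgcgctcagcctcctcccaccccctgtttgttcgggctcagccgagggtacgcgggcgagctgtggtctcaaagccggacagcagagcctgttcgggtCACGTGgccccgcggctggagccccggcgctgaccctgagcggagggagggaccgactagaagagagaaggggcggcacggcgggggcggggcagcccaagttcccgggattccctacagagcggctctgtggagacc
The Snai1 window held 1 E-box, CACCTG, that begins 126 bases before the start, and the Gata5 window held 1, CACGTG, that begins 138 bases before it. No other match overlapped either of these, and the pattern CANNTG, read on either strand, matches at the same positions. The start used for Gata5 is that of RefSeq, 180334679, where GENCODE M21 has 180334699. The Tbx20 window held no match to any of these letters. An E-box was found in 66.2% of the 32851 promoter windows of the same length in the table, a GATA site in 26.5%, the NFAT core in 55.6% and the GC-rich Smad site in 9.59%. The windows of Twist1 and Twist2 held 4 and 1 matches to the NFAT core and 0 to the other motifs. A match is a description of the letters in this window, and its absence says nothing about binding elsewhere.

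Tbx20 (chromosome 9, 24718138 to 24774303 on GRCm38, minus strand), a T-box factor of cardiac muscle and of the endocardial and cushion cells of the valves, differed most between the groups. Tbx20 was read at 203, 131 and 213 CPM in control replicates 1, 2 and 3, and at 316, 307 and 297 CPM in mutant replicates 1, 2 and 3. The mutants were close to each other and all above the highest control, whereas control replicate 2 lay well below the other controls. The means were 182 ± 44.9 CPM in the controls and 307 ± 9.34 CPM in the mutants, so that the spread was wider in the controls. Tbx20 thus had a log2FC of 0.75 (SE 0.19, 95% interval 0.30 to 1.21; adjusted p = 0.999 from edgeR), a 1.68-fold difference. Its adjusted p over the alternative fits ran from 0.113 in DESeq2 to 0.9999, and the exact permutation test gave a two-sided p of 0.1, and none smaller is possible with 3 against 3. The log2FC dropped to 0.56 without control replicate 2.

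Control replicate 2 was also the library with the least cardiac muscle RNA, with a summed marker level of 14513 CPM, whereas the other controls had 41462 and 45535 CPM. All 15 cardiac muscle markers were detected in each library, and 13 of them had a positive fitted fold change, with a median log2FC of 0.20 and groups that overlapped for all 15. Without control replicate 2 only 1 of the 15 had a positive one and the median was -0.16, and without mutant replicate 1 these were 6 and -0.027. The median was higher, at 0.59, 0.40 and 0.32, when control replicate 1, mutant replicate 2 or control replicate 3 was omitted. With the muscle marker score as a covariate the log2FC of Tbx20 was 0.70. Among the mutants, the muscle markers ranged from 23186 CPM in replicate 2 to 48873 CPM in replicate 1, while Tbx20 ranged from 297 to 316 CPM. Among the controls, replicate 2 was lowest for both. The cause of the difference in Tbx20 was not tested. Leaving out control replicate 2, Tbx20, Snai1 and Gata5 had every mutant above both remaining controls, a pattern found in 8.32% of all genes tested, and 0 of the 10 had every mutant below, a pattern found in 8.47%.

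Of the 3 GATA factors, 0 were called. Gata4 (chromosome 14, 63198922 to 63271692, minus strand), a zinc finger factor of cardiac muscle and endocardium, was read at 310, 243 and 284 CPM in control replicates 1 to 3 and at 412, 395 and 279 CPM in mutant replicates 1 to 3. The first and second mutants lay above every control, and mutant replicate 3 lay inside the control range. Its log2FC was 0.37 (SE 0.18, 95% interval -0.06 to 0.81; adjusted p = 0.999 from edgeR). It was 0.24 in limma-voom with sample quality weights and 0.34 with the muscle marker score as a covariate.

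Gata5 (chromosome 2, 180325133 to 180334699, minus strand) is a zinc finger factor of the endocardium. CPM of Gata5 were 25.2, 34.5 and 26.6 in control replicates 1 to 3 and 41.2, 47.9 and 33.9 in mutant replicates 1 to 3. The groups overlapped by a narrow margin, since mutant replicate 3 lay just below control replicate 2. Its log2FC came to 0.51 (SE 0.18, 95% interval 0.09 to 0.93; adjusted p = 0.999 from edgeR). Leaving out mutant replicate 2 gave 0.39, and leaving out control replicate 2 gave 0.67. The annotated antisense transcript Gata5os covers 7.87% of the exon bases of Gata5, and the library kit does not keep the strand, so that reads of the pair cannot be told apart there.

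Gata6 (chromosome 18, 11052064 to 11085635, plus strand), a zinc finger factor of endocardium, muscle and vascular smooth muscle, was the steadiest of the 10. Its levels were 149, 153 and 138 CPM in control replicates 1 to 3 and 141, 150 and 146 CPM in mutant replicates 1 to 3. All mutants lay inside the range of the controls. The fit gave Gata6 a log2FC of -0.01 (SE 0.09), and its 95% interval, from -0.23 to 0.21, was the narrowest among these genes.

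Because a ratio of 2 genes within a library does not depend on the library total, the related factors were also compared with each other. The count of Gata5 per count of Gata6 was 0.169, 0.225 and 0.192 in control replicates 1 to 3 and 0.292, 0.319 and 0.233 in mutant replicates 1 to 3. Every mutant lay above every control, and the ratio was 1.43-fold higher on average (difference of log2 ratios 0.52; two-sided p = 0.1 by the exact permutation test, which can give none smaller). This ratio carries the same Gata5 counts as the fold change above and is not an independent measurement. The Gata4 to Gata6 ratio was 2.08, 1.59 and 2.05 in the controls and 2.91, 2.62 and 1.91 in the mutants, with overlapping groups (difference of log2 ratios 0.37, and 0.24 without control replicate 2 or without mutant replicate 1; two-sided p = 0.3 by the exact permutation test).

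**Figure D2:**
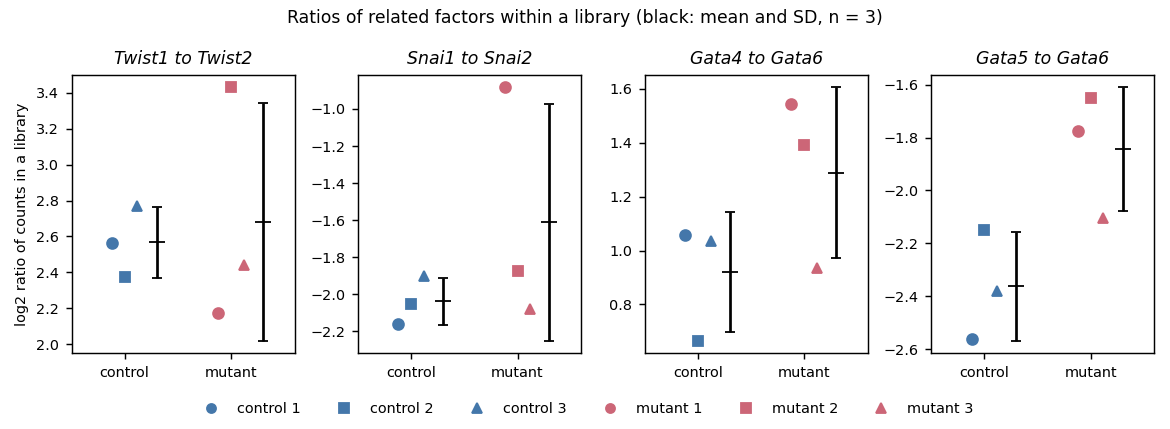
Log2 ratio of the counts of 2 related factors in each control (blue) and mutant (red) library, with marker shape for the replicate number and black bars for the mean and SD (n = 3); the vertical axes differ between panels and do not start at 0. The Gata5 to Gata6 ratio separates the groups, and in the Snai1 to Snai2 panel mutant replicate 1 stands apart at -0.88.

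Nfatc1 (chromosome 18, 80606205 to 80713071, minus strand) marks the endocardium and is the locus that drives the Cre recombinase in the mutants. Libraries gave 135, 161 and 116 CPM for Nfatc1 in control replicates 1 to 3 and 176, 173 and 133 CPM in mutant replicates 1 to 3. The first and second mutants were the highest libraries, and mutant replicate 3 lay among the controls. For Nfatc1 the log2FC was 0.23 (SE 0.17, 95% interval -0.17 to 0.62; adjusted p = 0.999 from edgeR). It rested in part on single libraries, with 0.11 without control replicate 3 and 0.36 without control replicate 2. The counts are per gene, so that a transcript from the allele with the Cre cassette is not told apart from one of the other allele.

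The endothelial markers, against which an endocardial gene can be set, summed to 2713 to 3864 CPM in the controls and 3068 to 3716 CPM in the mutants. Of these 12 markers 7 had a positive and 5 a negative fitted fold change, with a median log2FC of 0.00. The positive ones were 1 without control replicate 1 and 2 without mutant replicate 2. With the endothelial marker score as a covariate, the log2FCs were 0.24 for Nfatc1, 0.55 for Gata5 and 0.74 for Tbx20.

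Snai1 (chromosome 2, 167538195 to 167542814, plus strand), a repressor of cell junction genes in the transition from endocardium to mesenchyme, was among the lowest of the set. It was read at 6.40, 5.85 and 7.05 CPM in control replicates 1 to 3 and at 8.94, 7.51 and 7.35 CPM in mutant replicates 1 to 3, from 234 to 463 counts per library. Every mutant lay above every control, but mutants 2 and 3 exceeded the highest control only slightly. Snai1 had a log2FC of 0.30 (SE 0.18, 95% interval -0.11 to 0.72; adjusted p = 0.999 from edgeR; two-sided p = 0.1 by the exact permutation test, which can give none smaller). The log2FC of Snai1 was 0.21 without mutant replicate 1. The exact permutation test gives 0.1 whenever every mutant lies above every control, so it adds nothing to that pattern in Tbx20 and Snai1. Its two-sided p was 0.2 for Gata5, 0.3 for Gata4 and Nfatc1, and 0.8 or more for the rest of the 10.

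Snai2 (chromosome 16, 14705852 to 14709385, plus strand), the paralog that is also known as Slug, was read at 28.6, 24.3 and 26.4 CPM in control replicates 1 to 3 and at 16.5, 27.6 and 31.0 CPM in mutant replicates 1 to 3. Mutant replicate 1 was the lowest library and mutant replicate 3 the highest, with the controls between them. For Snai2 the log2FC was -0.08 (SE 0.23), and it was 0.15 without mutant replicate 1. The count of Snai1 per count of Snai2 was 0.224, 0.241 and 0.267 in the controls and 0.542, 0.273 and 0.237 in the mutants, so that only mutant replicate 1 stood apart (difference of log2 ratios 0.43, and 0.063 without mutant replicate 1; two-sided p = 0.3 by the exact permutation test).

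Twist1 (chromosome 12, 33957671 to 33959829, plus strand), a bHLH factor that keeps cushion cells in a proliferating mesenchymal state, was steady in the controls. Twist1 was read at 40.3, 36.0 and 39.3 CPM in control replicates 1 to 3 and at 28.3, 41.6 and 41.9 CPM in mutant replicates 1 to 3. Mutant replicate 1 was below every other library, and the other two mutants were above every control. For Twist1 the log2FC was -0.05 (SE 0.17, 95% interval -0.44 to 0.34), and its direction turned to 0.11 without mutant replicate 1.

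Twist2 (chromosome 1, 91801461 to 91848028, plus strand), a close relative known from dermal and mesenchymal cells, was the lowest of the set per kb of exon and close to Snai1 in CPM. The level of Twist2 was 6.81, 6.94 and 5.76 CPM in control replicates 1 to 3 and 6.27, 3.85 and 7.69 CPM in mutant replicates 1 to 3. Here mutant replicate 2 was the lowest library. Twist2 had a log2FC of -0.13 (SE 0.28), and it was 0.10 without mutant replicate 2. The Twist1 to Twist2 count ratio was 5.91, 5.18 and 6.82 in the controls and 4.51, 10.8 and 5.44 in the mutants, with overlapping groups (difference of log2 ratios 0.11, and -0.26 without mutant replicate 2; two-sided p = 0.9 by the exact permutation test). No 50-base window of the annotated transcripts was shared between any of these 10 genes, so that windows of this length do not confuse the paralogs. The annotated antisense gene Gm29100, which is not listed in the count table, covers 46.5% of the exon bases of Twist2. The library kit does not keep the strand, so that reads of Gm29100 and Twist2 cannot be told apart there. This limit holds for the Twist2 level, also per kb, and for the Twist1 to Twist2 ratio.

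Scx (chromosome 15, 76457452 to 76459458, plus strand) is the tendon factor of the set. The gene lies wholly within Bop1, a ribosome biogenesis gene on the opposite strand, and shares 0 exon bases with it. Scx was read at 40.6, 23.4 and 28.9 CPM in control replicates 1 to 3 and at 29.9, 36.2 and 26.3 CPM in mutant replicates 1 to 3, whereas Bop1 ranged from 42.4 to 53.2 CPM. The controls spread more widely than the mutants, and all mutants lay inside their range. Over the groups Scx had a log2FC of -0.01 (SE 0.22, 95% interval -0.54 to 0.52). Leaving out control replicate 2 gave -0.17, and leaving out control replicate 1 gave 0.24.

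**Figure D3:**
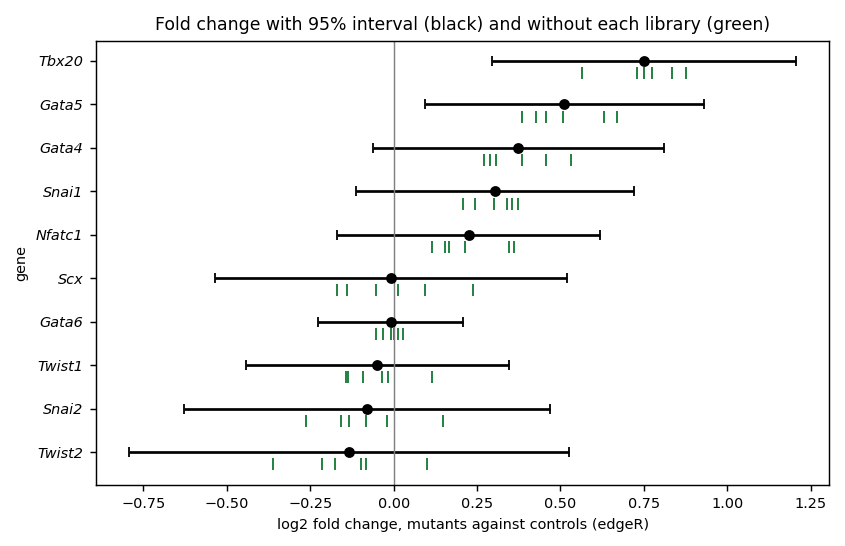
Log2FC (log2 fold change) of each of the 10 transcription factors, mutants against controls, from edgeR (black points) with its 95% interval (black bars), and the log2FC after leaving out each of the 6 libraries in turn (green ticks). The intervals of Tbx20 and Gata5 lie above 0, and the ticks of Scx, Gata6, Twist1, Snai2 and Twist2 fall on both sides of 0.

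Mutant replicate 1, in which Twist1 and Snai2 were lowest, also had the lowest level of smooth muscle markers. These 10 markers, such as Myh11 and Acta2, summed to 4137 CPM there, against 6971 and 7624 CPM in the other mutants and 7535 to 15123 CPM in the controls. All 10 were detected in each library. Of them 1 had a positive and 9 a negative fitted fold change, where 52.2% of all genes tested had a positive one, and 4 had every mutant below every control, against 4.83% of all genes tested. The fibroblast and valve interstitial markers were lowest in the same library too, at 13927 CPM against 15691 CPM or more elsewhere. Whether these shares of other cells have a part in the low Twist1 and Snai2 was not tested.

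Compared between genes per kb of annotated exon, Gata4 stood above the rest of the set. In the controls it was read at 71.5 ± 8.58 CPM per kb, higher than 94.8% of the tested genes with a known length. Twist1 (23.7 ± 1.38 CPM per kb), Gata6, Nfatc1, Scx, Tbx20 and Snai2 followed in this order down to 13.1 ± 1.06 CPM per kb, and from Twist1 to Snai2 each gene overlapped the next among the controls. Gata5 was lower at 8.78 ± 1.54 CPM per kb, without overlap with Snai2. Snai1 at 3.97 ± 0.368 CPM per kb and Twist2 at 2.05 ± 0.204 CPM per kb were the lowest, each apart from its neighbours, and Twist2 was above 33.5% of the tested genes. The mutants kept Gata4 at the top, at 92.6 ± 18.5 CPM per kb, and Twist2 at the bottom, at 1.87 ± 0.613 CPM per kb. By the group means Tbx20 changed its place most, from 15.2 ± 3.74 CPM per kb in the controls to 25.6 ± 0.778 CPM per kb in the mutants, where it came after Gata4. Tbx20 and Twist1 overlapped among the mutants. Twist1 was at 17.4, 25.5 and 25.7 CPM per kb in mutant replicates 1 to 3 and Tbx20 at 26.3, 25.6 and 24.8. The exon lengths are those of all annotated isoforms together, and which isoforms these libraries held was not tested.

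**Figure D4:**
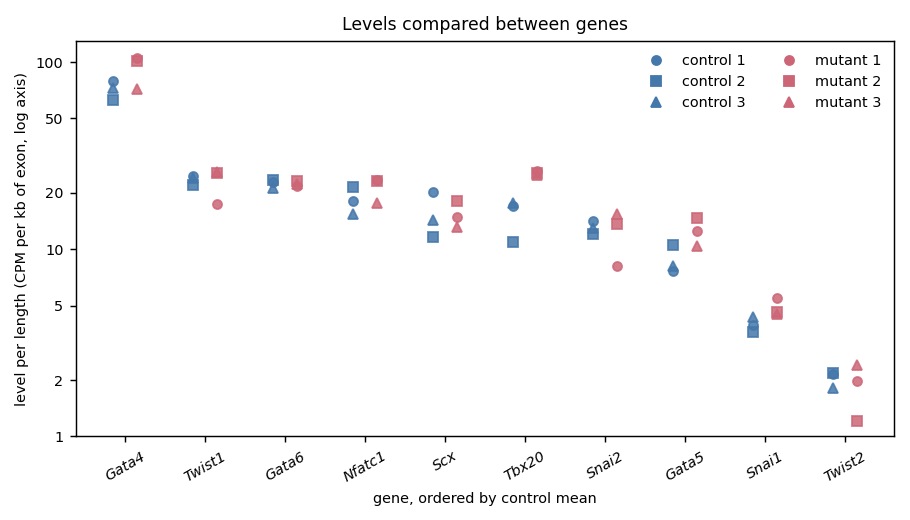
Level per length of the 10 transcription factors, in CPM per kb of annotated exon on a log axis, in each control (blue) and mutant (red) library, ordered by the control mean. Gata4 is at the top and Twist2 at the bottom in both groups, and Tbx20 moves from between Scx and Snai2 in the controls to 25.6 CPM per kb in the mutants.

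For each gene, the other gene with the most similar pattern over the 6 libraries was looked up among 13693 genes with a mean of at least 1 CPM. The gene most like Twist1 was Snai2, itself a member of the set (Pearson r 0.98 and Spearman rho 0.94 over 6 libraries). With 6 points the match rests on few libraries, and r was 0.74 without the 2 libraries farthest from the median of Twist1. The closest genes to the others were Uhmk1 for Nfatc1, Ccl2 for Gata4, Prmt10 for Gata5, Zfp446 for Gata6, Lrrtm3 for Tbx20, Xylb for Twist2, Tyro3 for Snai1, Wisp2 for Snai2 and BC067068 for Scx, with r from 0.99 to 1.00. Each of the 10 genes had between 10 and 32 others with r above 0.95, so that a high r is not particular to the gene named. All these values come from the same 6 libraries and share their differences in composition.

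The relatives and partners of these factors were described from lists of genes, of which 0 members were called in edgeR. Among 9 other T-box genes tested, 5 had a positive and 4 a negative fitted fold change. Tbx1, a factor of the outflow tract and pharyngeal mesoderm, was read at 10.9, 23.8 and 14.3 CPM in the controls and at 5.99, 8.37 and 4.84 CPM in the mutants, opposite in direction to Tbx20. Its log2FC was -1.35 (SE 0.34; adjusted p = 0.999 from edgeR). It came to -1.59 when mutant replicate 2 was left out and to -0.97 when control replicate 2 was. Tbx2 and Tbx3, repressors known from the cushions and the conduction system, had overlapping groups, with log2FCs of -0.31 (SE 0.18) and 0.60 (SE 0.58). Omitting mutant replicate 3 took that of Tbx2 to -0.51, and omitting mutant replicate 2 took it to -0.20. That of Tbx3 turned to -0.32 without mutant replicate 1 and was 1.01 without control replicate 1.

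Among 13 bHLH partners and inhibitors of Twist and Scx, 6 had a positive and 7 a negative fitted fold change, and the positive ones were 3 without mutant replicate 2. Hand2, a partner of Twist1 in dimers, was read at 53.1 ± 3.28 CPM in the controls and 65.5 ± 6.21 CPM in the mutants, with every mutant above every control and a log2FC of 0.30 (SE 0.11). Hand1, its relative, was low at 1.24 ± 0.465 CPM and 0.498 ± 0.289 CPM, with every mutant below every control and a log2FC of -1.32 (SE 0.55), and -0.98 without control replicate 2. Tcf15 had a log2FC of -0.38 (SE 0.29), which became -0.64 without control replicate 2 and -0.14 without control replicate 3. The 5 other Snail-related and Zeb genes tested had overlapping groups, among them Zeb1, at 92.1 ± 16.1 CPM and 86.1 ± 7.91 CPM, Ovol1, at a log2FC of 0.60 (SE 0.64), and Snai3, at one of -0.36 (SE 0.97). Ovol1 was at 0.15 when mutant replicate 1 was omitted and at 1.07 when control replicate 3 was. Snai3 was at -0.90 when control replicate 2 was omitted and at 0.86 when control replicate 1 was.

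Of 8 other GATA genes and cofactors, 4 had a positive and 4 a negative fitted fold change, and in all 8 the groups overlapped. Without mutant replicate 2 there was 1 positive among 7 tested, and without control replicate 2 or mutant replicate 3 there were 6 among 8. Zfpm2, the cofactor also known as Fog2 that binds Gata4, had a log2FC of -0.28 (SE 0.18), Trps1 one of 0.13 (SE 0.11) and Gata1 one of 1.35 (SE 1.19) at a mean of 0.335 CPM in the mutants. Zfpm2 was at -0.46 without mutant replicate 1 and -0.14 without mutant replicate 3, and Trps1 was at 0.080 without control replicate 2. Of 11 NFAT family and calcineurin genes, 8 had a positive and 3 a negative fitted fold change, and the positive ones were 5 without mutant replicate 3. Rcan2, a regulator of calcineurin, was lower in every mutant, with a log2FC of -0.33 (SE 0.15). The margin was slight, with 443.7 CPM in mutant replicate 1 and 444.8 CPM in control replicate 1. The log2FC of Rcan2 was -0.25 without control replicate 2 and -0.45 without mutant replicate 1. Ppp3cc, a calcineurin subunit, was higher in every mutant, with a log2FC of 0.23 (SE 0.12). Without control replicate 2 that of Ppp3cc was 0.14. Ppp3ca had a log2FC of 0.26 (SE 0.13) and Nfatc2 one of -0.28 (SE 0.14), with overlapping groups, and Ppp3ca was at 0.17 without mutant replicate 2.

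Among 31 other transcription factors known from valves, 16 had a positive and 15 a negative fitted fold change. In 6 of them every mutant lay below every control, against 4.83% of all genes tested, and in 1, the shear-responsive factor Klf2 (log2FC 0.32), every mutant lay above, against 4.04%. The smallest p-values belonged to Foxc2, a forkhead factor of valves and lymphatics that was read at 74.6 ± 0.792 CPM in the controls and 52.2 ± 10.9 CPM in the mutants. Its log2FC was -0.52 (SE 0.16; adjusted p = 0.999 from edgeR). Heyl, a target of Notch, had a log2FC of -0.77 (SE 0.28) and Mef2c, a MADS box factor of muscle and endothelium, one of -0.32 (SE 0.12), and without control replicate 2 these were -0.50 and -0.19. The other 3 that were lower in every mutant were Foxc1, Sox11 and Smad4.

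Among 20 genes of the transition from endothelium to mesenchyme, 8 had a positive and 12 a negative fitted fold change. The positive ones were as few as 3 (without control replicate 1) or 4 (without mutant replicate 2) and as many as 11 (without control replicate 2). Tgfbr3, the TGF-beta coreceptor betaglycan, was lower in every mutant, with a log2FC of -0.30 (SE 0.12), and -0.19 without control replicate 2. Tagln was lower in every mutant as well, with a log2FC of -0.90 (SE 0.44) that was -0.52 without control replicate 2, and Acta2 had one of -0.77 (SE 0.54) that was -0.20 without the same library. Tagln and Acta2 are also in the smooth muscle marker list described above.

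Genes known as targets of the factors had overlapping groups throughout. Of 10 targets of Gata4 and Tbx20 in cardiac muscle, 7 had a positive fitted fold change, and Nppa had one of -0.93 (SE 0.68) and Nkx2-5 one of 0.36 (SE 0.42). The number of 7 was 3 without control replicate 2 or without mutant replicate 1, and 10 without control replicate 3. Nppa turned to 0.065 without control replicate 3. Nkx2-5 was at 0.0037 without control replicate 2 and at 0.59 without control replicate 3. Of 5 targets of Scx, Col1a2, Fmod and Col1a1 had log2FCs of -0.24 (SE 0.20), 0.18 (SE 0.17) and -0.16 (SE 0.21). These came nearest to 0 at -0.13 without mutant replicate 1, 0.021 without control replicate 2 and -0.011 without control replicate 3. Of 4 targets of Nfatc1, Cdkn1a had a log2FC of 0.23 (SE 0.18), Rcan1 one of 0.27 (SE 0.22) and Acp5 one of -0.22 (SE 0.46). Cdkn1a was at 0.11 without control replicate 1 and 0.38 without mutant replicate 1, and Rcan1 was at 0.014 with mutant replicate 1 omitted and at 0.44 with mutant replicate 3 omitted. Acp5 was at -0.63 without mutant replicate 3 and 0.37 without control replicate 2.

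Other cell types of the tissue also differed between libraries. The leukocyte markers found in the table summed to 1256 to 1412 CPM in the controls and 1649 to 1846 CPM in the mutants without overlap. Their mean log2 CPM did overlap, at 4.24 to 4.73 in the controls and 4.34 to 5.40 in the mutants, lowest of the mutants in replicate 1. Of the 11 tested, 9 had a positive and 2 a negative fitted fold change. In 5 of the 11 every mutant lay above every control, against 4.04% of all genes tested. DESeq2 called 1 of these markers, the lysozyme gene Lyz2 (log2FC 0.46 in edgeR; adjusted p = 0.00506 from DESeq2 and 0.999 from edgeR), which has the close paralog Lyz1. The mesothelial markers ranged from 143 to 1454 CPM in the controls, highest in control replicate 2, and from 163 to 599 CPM in the mutants, and the melanocyte markers from 27.7 to 174 CPM and from 82.9 to 198 CPM, lowest in control replicate 2. Red blood cell markers ranged from 2789 to 10291 CPM and from 1322 to 9084 CPM, adipocyte markers from 305 to 511 CPM and from 251 to 410 CPM, Schwann cell markers from 97.6 to 114 CPM and from 93.0 to 116 CPM, and cartilage and tendon markers from 204 to 635 CPM and from 249 to 408 CPM. The defining marker Hba-a1 was listed at 0 in control replicate 3 and mutant replicate 3, its near-identical copy Hba-a2 at 0 in control replicate 1 and mutant replicate 2, Matn3 of cartilage at 0 in control replicate 3 and mutant replicate 2, and Col2a1 of cartilage at 0 in mutant replicate 1. Their part in the levels of the transcription factors was not tested.

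**Figure D5:**
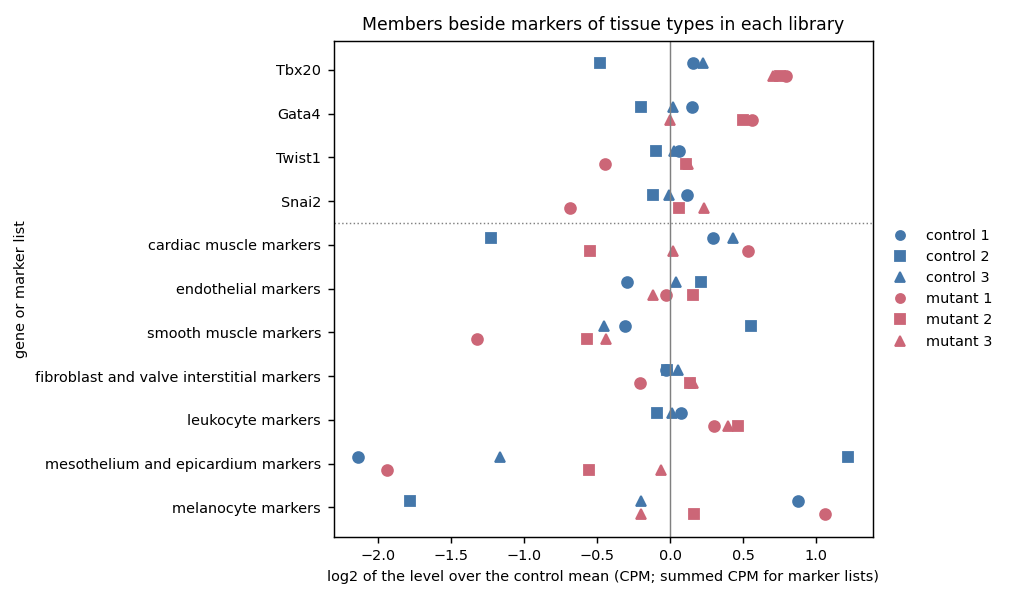
Log2 of the level in each library over the control mean, for 4 of the transcription factors (CPM, above the dotted line) and for the summed CPM of 7 marker lists (below it), with controls in blue, mutants in red and marker shape for the replicate number. Control replicate 2 is lowest for Tbx20, Gata4 and the cardiac muscle markers, and mutant replicate 1 is lowest for Twist1, Snai2 and the smooth muscle markers.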

How the data were processed

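RNA of mouse aortic valves was measured in 3 control and 3 mutant libraries, grouped by their deposited titles. Alignment by the authors used mm10 and Bowtie2 (2.2.1 in the submitters' processing notes, which also name TopHat2 2.0.13), and fragments were assigned to genes with Cuffdiff 2.1.1. The values as deposited by the authors are estimated counts, not scaled for library size. Between 1.66% and 1.87% of them per library were not whole and were rounded.

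All genes that reached 10 counts in 3 or more libraries were fitted together in edgeR 4.0.16 (R 4.3.3) with TMM normalization and the two-sided quasi-likelihood F test without covariates, and Benjamini-Hochberg adjustment ran over all 15354 genes. Standard errors and 95% intervals came from the F statistic and its degrees of freedom. The fit was tested on simulated counts, and the outcome of that test is not given here. Neither Cuffdiff, which works on alignments, nor the Mann-Whitney test of the study, whose smallest two-sided p is 0.1 for 3 against 3, was run.

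GENCODE M21 (GRCm38) gave positions, exon lengths and overlaps, with a length for 90.2% of the genes tested. Ratios used log2 of counts with 0.5 added. As alternatives, DESeq2 1.42.0, a different scaling (upper quartile), no filter, a mean count of at least 100, limma-voom (limma 3.58.1) with weights for sample quality, a block for the replicate number, a cardiac muscle or endothelial marker score as a covariate, 1 count added in the ratios and the omission of each library were run. Counts of genes without overlap, and counts and medians of the lists, after leaving out a library were added after seeing the data. The 10 genes and the lists were chosen with earlier results of these data known. By rule, the text names all 10 genes, and from each list of relatives, partners and targets the 3 genes with the smallest p and up to 3 whose groups do not overlap. It also names the gene most like each of the 10. Besides the genes and markers that the text names, 1 more gene under this rule and 1 more marker at 0 are not reported here. Klf2, Foxc1, Sox11, Smad4, Myh11, Lyz2 and the markers listed at 0 were named after their values were seen.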

Additional observations from a re-analysis of the deposited data

How the results depend on the processing

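Tbx20, Gata5, Gata4, Snai1 and Nfatc1 kept a positive log2 fold change in all 14 alternative fits, and 0 of the 10 genes were called in any of them. Over all genes tested, DESeq2 called 21 higher and 5 lower, where the other fits called 0. The genes with a fold change near 0 turned direction. Gata6 was at 0.00091 with upper-quartile normalization, 0.025 in limma-voom and 0.0077 with the muscle score, and from -0.053 to 0.027 without each library. Scx was at 0.0042 with upper-quartile normalization, 0.016 with the replicate block and 0.00027 with the endothelial score, and from -0.17 to 0.24 without each library. Without each library in turn Twist1 ranged from -0.14 to 0.11, Snai2 from -0.26 to 0.15, Twist2 from -0.36 to 0.10 and the Twist1 to Twist2 log2 ratio difference from -0.26 to 0.37. The number of the 10 with a positive fold change therefore ranged from 5 to 9 and with a negative one from 1 to 5 without each library, highest for the positive without mutant replicate 1, and the negative number was 3 with upper-quartile normalization. The number with every mutant above every control was 5 without mutant replicate 3. The deviations of same-numbered libraries correlated at 0.25, 0.051 and 0.037 over genes for replicates 1, 2 and 3. The value of 0.25 was the highest of all pairs, and control replicate 2 and mutant replicate 3 correlated at 0.18. With 3 libraries per group these values cannot decide whether the replicate numbers pair the samples. With the replicate block 0 genes were called and Scx was the only one of the 10 to turn. An unadjusted p under 0.05 in edgeR then came for 814 genes, against 529 without the block. The SE fell for Nfatc1 (0.093 against 0.167), among others, and rose for Snai1, Twist2, Snai2 and Scx. The causes were not tested.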
